A study of Mus musculus with 6 samples.

Results

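Mucosal innate defence effectors of the colonic epithelium were followed as 10 genes, taken by symbol from a table of normalized read counts: Pigr, Nos2, Nox1, Duox2, Duoxa2, Saa1, Saa2, Saa3, Lcn2 and Ly6g6c. Of these, 9 had a row among the 25067 rows of the table, and Saa2 was not analysed here. RNA was sequenced in 6 libraries of mouse colon organoids, which are crypt-derived epithelial structures grown in matrix. All 6 were of strain C57BL/6 and age 8 weeks and carried the genotype Prkcif/fPrkczf/f;Villin-CreERT2, that is, floxed alleles of both atypical protein kinase C (aPKC) genes and a Cre recombinase that is driven by the gut epithelial Villin promoter and switched on by 4-OH-Tamoxifen (4-OHT). Organoids of 3 libraries had received 4-OHT for 3 days, and those of the other 3 Vehicle (Ethanol), and the comparison asked how the epithelium changes shortly after the aPKC genes are deleted. The vehicle group is described in the labels as wild type although it carries the same floxed alleles and the same Cre, and no 4-OHT group without Cre or without floxed alleles was compared here, so loss of aPKC, Cre activity and exposure to 4-OHT cannot be told apart.

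In 4-OHT organoids the oxidant genes Nos2 and Nox1 rose 2.61-fold and 1.90-fold, with no overlap between groups, and Ly6g6c rose 1.69-fold with overlapping groups. Pigr, the most abundant member, fell by 20.0%, and Duox2 fell by 14.7% with overlapping groups. Duoxa2, Saa1 and Saa3 did not pass the test, and Lcn2 had too few reads to be tested, with 26 reads in the vehicle group and 2 in the 4-OHT group. So 3 of 8 tested members rose and 2 of 8 fell, at a background of 22.7% of all 13210 tested genes that rose and 21.0% that fell.

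An intestinal epithelium defends its surface with secreted and membrane-bound products. The polymeric immunoglobulin receptor carries IgA from the tissue side to the lumen, inducible nitric oxide synthase makes nitric oxide from arginine, and the NADPH oxidases of the apical membrane release superoxide or hydrogen peroxide. Serum amyloid A proteins bind retinol and lipid and rise in the acute phase, and lipocalin 2 withholds iron from bacteria by binding their siderophores. In colonocytes these genes are known to respond to microbial products and to cytokines such as interleukin 22, interleukin 17, tumour necrosis factor and interferon gamma, none of which is named among the additions to the medium.

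The libraries held between 15804709 and 26957612 reads, as recovered from the normalized counts. Of the floxed genes, Prkcz had a mean of 912 ± 37.9 (SD, n = 3) in vehicle and 281 ± 13.6 in 4-OHT organoids, and Prkci of 3519.7 ± 86.9 and 3021 ± 132 (log2 fold changes of -1.70 and -0.22, limma adjusted p = 3.2e-12 and 0.00081). Reads along single exons were not analysed here, so these sums over a gene need not show the whole deletion. Epithelial genes were abundant in every library (10 markers, together 23143 to 23852 RPM, the reads scaled to the library total, in vehicle and 29410 to 31039 in 4-OHT). Among genes of colonocytes, Car1, a carbonic anhydrase, was the most abundant, at a mean normalized count of 5169.8 ± 530.1 in vehicle and 9772 ± 1021 in 4-OHT organoids (log2 fold change 0.92, limma adjusted p = 2.6e-09). Car4 and Aqp8 had few reads, with means of 1.59 ± 0.76 and 17.7 ± 13.3 in vehicle, and were called higher in 4-OHT organoids, at 22.2 ± 24.3 and 41.3 ± 19.6 (adjusted p = 0.0043 and 0.026). Of 14 leukocyte markers, 13 had a row and 3 were tested, of which Ly6g and Csf1r rose and Cd68 fell. Ly6g led the list, at 9519.8 ± 243 in vehicle and 13532 ± 1565 in 4-OHT organoids (adjusted p = 9.9e-07). Cd68, a lysosomal protein of macrophages, was at 187 ± 23.8 and 139.9 ± 14.4 (adjusted p = 0.015), and Csf1r, a macrophage receptor, at 8.81 ± 4.12 and 20.9 ± 7.60 (adjusted p = 0.03). The defining genes Ptprc and Tyrobp had at most 4 reads and 1 read in a library, and the 12 leukocyte genes other than Ly6g summed to between 7.99 and 11.9 RPM. Their part in the members' results was not tested.

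Libraries 2 and 3 of the 4-OHT group stood apart from the other 4 in their sums of plasma cell, smooth muscle, and Paneth and ileal genes. In fibroblast genes only replicate 3 stood above the vehicle libraries. Igha, the heavy chain of IgA, was not read in vehicle (0 reads in all 3 libraries) and had 1, 135 and 40 reads in the 4-OHT libraries. The plasma cell list as a whole came to between 0 and 0.063 RPM in vehicle and to 0.10, 10.5 and 3.69 in the 4-OHT libraries. Reg3g, a lectin of ileal epithelium and Paneth cells, had 1, 1 and 0 reads in vehicle and 1, 363 and 123 in 4-OHT libraries, and the 10 genes of its list summed to 7.85 to 14.1 and to 9.76, 61.9 and 45.0 RPM. The fibroblast list reached 10.6 and the smooth muscle list 8.18 RPM in 4-OHT replicate 3, against highest values of 3.58 and 0.70 in vehicle. The part of these genes in the members' results was not tested, and each member is given with all 3 libraries and also without 4-OHT replicates 2 and 3, a fit in which the 1 remaining 4-OHT library is assumed to vary like the others. In such a fit the log2 fold changes of the 5 called members kept their signs. The library kept, 4-OHT replicate 1, was the lowest of all for Duox2 and the highest for Ly6g6c. With replicate 1 left out instead, neither Duox2 nor Ly6g6c was called (limma adjusted p = 0.23 and 0.15).

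Values are normalized counts, that is, reads divided by 1 size factor per library. A gene was called where limma's moderated test on log2(normalized count + 1), with Benjamini-Hochberg adjustment over the 13210 genes with a mean of at least 10, gave an adjusted p under 0.05. Fold changes are on that scale, and the added 1 shrinks those of genes with few reads. As differences of mean logs they can still be larger than those of another test. For Saa1 the value was 0.89, against 0.59 with edgeR on whole reads. Of the genes tested, 43.6% were called, and the median log2 fold change was -0.0054, with a median size of 0.21. The members' 5 calls among 8 stand beside that background and were not read as a property of the group, whose median was 0.45. Separate animals or cultures are not stated for the replicates, so p-values measure only the spread between these libraries. In bulk RNA, fewer cells of a type and less RNA per cell cannot be told apart.

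**Figure D1:**
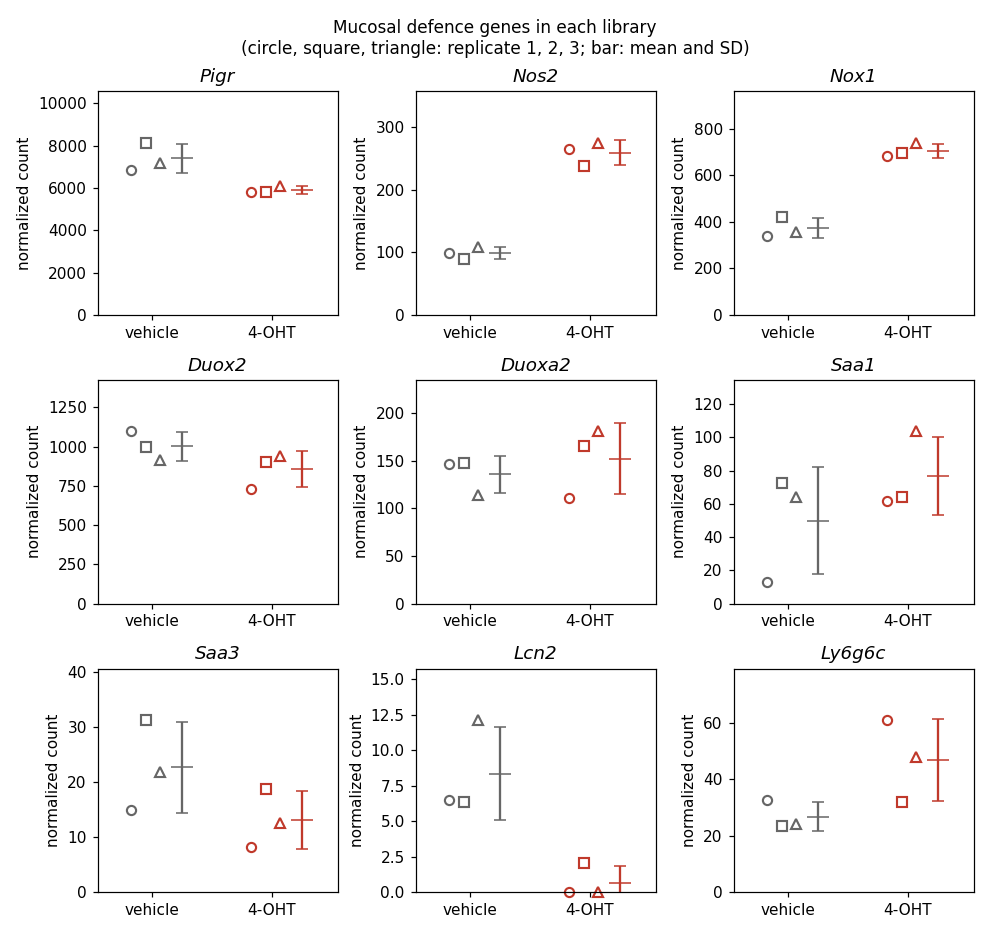
Normalized count (vertical axis, linear from 0) of the 9 members with a row in the 3 vehicle libraries (grey) and the 3 4-OHT libraries (red), where the symbol marks the replicate and the bar the mean with its SD. Nos2 and Nox1 lie higher in every 4-OHT library than in any vehicle library, Pigr and Lcn2 lie lower, and the groups of the other members overlap.

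Pigr encodes the polymeric immunoglobulin receptor, and lies on chromosome 1 between Fcamr and Fcmr, both genes of Fc receptors for immunoglobulin. Its promoter is shown because Pigr was the most abundant member and fell. The sequence covers the 250 bases before the transcription start, chr1:130826434-130826683, plus strand, from RefSeq on GRCm38.p6, with capitals for the E-box letters CACGTG, found 71 bases before the start.
Pigr: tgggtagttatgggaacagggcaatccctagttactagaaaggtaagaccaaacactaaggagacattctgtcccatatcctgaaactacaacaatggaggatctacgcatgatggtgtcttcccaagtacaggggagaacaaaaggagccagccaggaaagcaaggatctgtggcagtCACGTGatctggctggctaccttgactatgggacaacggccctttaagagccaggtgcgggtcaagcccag
CACGTG, which reads the same on both strands, stood in 6.02% of 32851 mouse promoters of this length. Such a match is a description of letters and not of a bound site. The build differs from GRCm39, which the submitters' processing notes name.

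Pigr had normalized counts of 6862, 8137 and 7173 in vehicle replicates 1, 2 and 3 and of 5822, 5782 and 6092 in 4-OHT replicates 1, 2 and 3. Each 4-OHT library lay below each vehicle library, while vehicle replicate 2 stood highest. The mean fell from 7391 ± 665 (SD, n = 3) to 5899 ± 169, a log2 fold change of -0.32 (SE 0.05, 95% interval -0.43 to -0.21, limma adjusted p = 6.1e-05). Without 4-OHT replicates 2 and 3 the value was -0.34 (limma adjusted p = 0.0021). Its change was larger in size than that of 66.8% of tested genes.

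Genes of the route that carries the receptor through the cell were read beside it. Of 13 genes of polymeric immunoglobulin receptor sorting and transcytosis, all tested, 9 rose, none fell and 4 did not pass, with a median log2 fold change of 0.24, where 22.7% of all tested genes rose and 21.0% fell. Egfr, the growth factor receptor whose signal is known to speed this transport, showed the largest rise, from 3119 ± 17.0 to 4536 ± 118 (log2 fold change 0.54, limma adjusted p = 8e-09). Rab11a, a small GTPase of apical recycling endosomes, rose by 0.43 on the log2 scale (limma adjusted p = 3.6e-06).

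Nos2, the inducible nitric oxide synthase on chromosome 11, had the fewest reads per transcript length of the called members in vehicle organoids. Its normalized counts were 98.9, 90.1 and 108 in vehicle replicates 1, 2 and 3 and 266, 237 and 275 in 4-OHT replicates 1, 2 and 3. All 4-OHT libraries stood well above all vehicle libraries. The mean rose from 98.9 ± 8.83 to 259 ± 19.8, a log2 fold change of 1.38 (SE 0.13, 95% interval 1.12 to 1.65, limma adjusted p = 3.6e-08), which was larger in size than that of 98.7% of tested genes. Without 4-OHT replicates 2 and 3 it was 1.42 (limma adjusted p = 2.2e-05).

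Genes that supply or compete for arginine were called in both directions, where 22.7% of all tested genes rose and 21.0% fell. Of 12 listed genes of arginine and nitric oxide metabolism, 8 were tested, 1 rose, 2 fell and 5 did not pass, with a median of 0.096. Asl, the lyase that regenerates arginine, rose by 0.35 (limma adjusted p = 2.8e-05), while its partner Ass1 was at 0.09 (adjusted p = 0.23, 95% interval -0.03 to 0.21). Gch1, which starts the synthesis of the cofactor tetrahydrobiopterin, was at 0.10 (adjusted p = 0.25, 95% interval -0.04 to 0.25). Slc7a1, the main cationic amino acid carrier, fell from 4769 ± 98.2 to 2838 ± 132 (log2 fold change -0.75, limma adjusted p = 2.4e-10), and Odc1, which commits ornithine to polyamines, fell by 0.15 (adjusted p = 0.0072).

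Nox1, on the X chromosome, encodes the superoxide-making oxidase of colonocytes, whose activity needs the membrane subunit p22phox (Cyba), the organizer Noxo1, the activator Noxa1 and the GTPase Rac1. Its promoter is shown because it belongs to the member that rose most among those matched to a promoter in the RefSeq table, which held 9 of the 10 genes. The 250 bases before the start are chrX:134111855-134112104, minus strand, GRCm38.p6, and capitals mark a match to the NF-kB core GGNNTTTCC on the opposite strand, 91 to 83 bases before the start.
Nox1: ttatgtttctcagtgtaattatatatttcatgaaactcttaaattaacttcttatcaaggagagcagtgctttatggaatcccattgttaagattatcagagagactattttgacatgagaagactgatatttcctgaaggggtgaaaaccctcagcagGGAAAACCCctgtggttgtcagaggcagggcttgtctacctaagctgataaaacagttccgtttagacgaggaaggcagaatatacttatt
That core, sought on both strands, stood in 4.93% of the 32851 promoters. The letters TGACTCA (AP-1), TTCNNNGAA (STAT), TTTCNNTTT (interferon response core) and TATAAA were sought in the same way and stood in 4.46%, 7.02%, 9.37% and 12.4% of promoters.

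Nox1 had normalized counts of 339, 421 and 357 in vehicle replicates 1, 2 and 3 and of 682, 694 and 740 in 4-OHT replicates 1, 2 and 3. Every 4-OHT library stood above every vehicle library, and the 4-OHT libraries lay close together. The mean rose from 372 ± 43.0 to 705 ± 30.5, a log2 fold change of 0.93 (SE 0.08, 95% interval 0.75 to 1.10, limma adjusted p = 3.9e-08). Without 4-OHT replicates 2 and 3 it was 0.88 (limma adjusted p = 3.7e-05).

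The partners of Nox1 were called in both directions, at a background of 22.7% of all tested genes that rose and 21.0% that fell. Of 13 listed NADPH oxidase genes other than the members, 6 were tested, 3 rose, 1 fell and 2 did not pass, with a median log2 fold change of 0.22. Cyba rose from 2732 ± 125 to 3873 ± 185 (log2 fold change 0.50, limma adjusted p = 1.1e-07). Noxa1 rose by 0.18 (adjusted p = 0.0094, or 0.069 without vehicle replicate 1) and Rac1 by 0.26 (adjusted p = 0.002), which was 0.07 (adjusted p = 0.37) without 4-OHT replicates 2 and 3. Noxo1, with few reads, fell from 72.6 ± 5.69 to 50.9 ± 2.80 without overlap between groups (log2 fold change -0.50, limma adjusted p = 0.035). The direction of Noxo1 was kept in all alternatives, but its call was lost without vehicle replicate 1, 2 or 3 (adjusted p = 0.077, 0.058 and 0.11) and without 4-OHT replicate 2 or 3 (adjusted p = 0.085 and 0.053). DESeq2 (adjusted p = 0.082) and limma with no minimum mean (adjusted p = 0.095) did not call it either. Of 17 alternatives, 9 lost the call and 8 kept it. Per 100 reads of Noxo1 there were 471, 624 and 454 reads of Nox1 in vehicle replicates 1, 2 and 3. In 4-OHT replicates 1, 2 and 3 there were 1294, 1457 and 1413. That this ratio did not overlap between groups follows from the rise of Nox1 and the fall of Noxo1, each without overlap.

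Duox2 encodes the dual oxidase that makes hydrogen peroxide at the apical surface, and Duoxa2 the maturation factor that brings it there. Both genes lie side by side on chromosome 2, point away from each other and start 673 bases apart in RefSeq. Their promoters are shown together because the pair is arranged head to head while their counts were tested apart. The sequences are chr2:122298228-122298477, minus strand, for Duox2 and chr2:122298650-122298899, plus strand, for Duoxa2, on GRCm38.p6, and capitals mark TATAAA, 30 bases before the start of Duoxa2.
Duox2: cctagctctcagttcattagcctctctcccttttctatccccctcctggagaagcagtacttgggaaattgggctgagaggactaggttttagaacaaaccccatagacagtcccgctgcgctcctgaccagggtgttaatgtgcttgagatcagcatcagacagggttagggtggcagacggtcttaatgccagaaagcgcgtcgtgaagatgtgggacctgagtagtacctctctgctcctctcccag
Duoxa2: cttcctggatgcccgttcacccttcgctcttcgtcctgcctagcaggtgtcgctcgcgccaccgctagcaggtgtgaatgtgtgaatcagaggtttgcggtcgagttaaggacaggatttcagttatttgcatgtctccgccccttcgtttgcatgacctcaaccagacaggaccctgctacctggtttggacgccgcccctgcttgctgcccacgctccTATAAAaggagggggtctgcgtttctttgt
None of the 6 motifs matched in the Duox2 window, which says only that these letters are not in it.

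Duox2 had normalized counts of 1097, 995 and 913 in vehicle replicates 1, 2 and 3 and of 727, 901 and 943 in 4-OHT replicates 1, 2 and 3. The groups overlapped, since 4-OHT replicate 3 lay above vehicle replicate 3, and 4-OHT replicate 1 was the lowest library. The mean fell from 1002 ± 92.4 to 857 ± 114, a log2 fold change of -0.23 (SE 0.09, 95% interval -0.41 to -0.05, limma adjusted p = 0.035). The call was lost without vehicle replicate 1 (-0.16, adjusted p = 0.19), vehicle replicate 2 (-0.23, adjusted p = 0.07) or 4-OHT replicate 1 (-0.12, adjusted p = 0.23). With 4-OHT replicate 1 as the only 4-OHT library it was -0.46 (limma adjusted p = 0.0014). Of the 50-base windows of a Duox2 transcript, 6.84% also occur in Duox1, which had at most 5 reads in a library.

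Duoxa2 had normalized counts of 146, 148 and 114 in vehicle replicates 1, 2 and 3 and of 111, 166 and 181 in 4-OHT replicates 1, 2 and 3. The 4-OHT group held both the lowest and the highest libraries, so the groups overlapped. The means were 136 ± 19.2 and 152 ± 37.1, a log2 fold change of 0.14 (SE 0.17, 95% interval -0.21 to 0.49, limma adjusted p = 0.52), and the value was -0.29 (adjusted p = 0.32) without 4-OHT replicates 2 and 3. Within libraries, there were 13.4, 14.8 and 12.5 reads of Duoxa2 per 100 of Duox2 in vehicle replicates 1, 2 and 3 and 15.2, 18.4 and 19.2 in 4-OHT replicates 1, 2 and 3. That ratio was higher in each 4-OHT library than in any vehicle library, though in replicate 1 only just. Duoxa1, the maturation factor of Duox1, had at most 13 reads in a library.

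In the order of mean levels per kilobase, Nox1 and Duox2 changed places, though their vehicle libraries overlapped. Per 100 reads of Duox2 there were 30.9, 42.3 and 39.1 reads of Nox1 in vehicle replicates 1, 2 and 3 and 93.7, 77.1 and 78.5 in 4-OHT replicates 1, 2 and 3. These reads are not corrected for length. Per kilobase of transcript, the level of Duox2 in vehicle was a normalized count of 174 ± 16.1 and that of Nox1 145 ± 16.8, with overlapping libraries. In 4-OHT organoids Nox1, at 275 ± 11.9 per kilobase, stood above Duox2, at 149 ± 19.9, in every library.

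**Figure D2:**
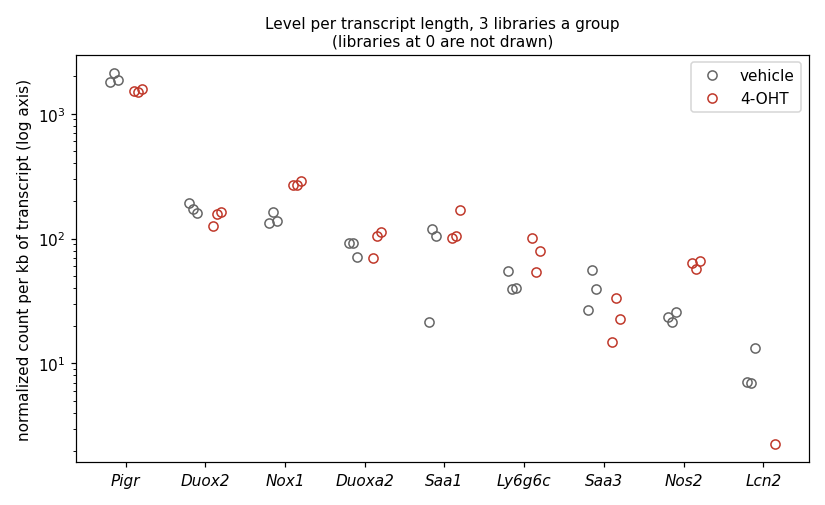
Normalized count per kilobase of transcript (vertical axis, log scale) of each member in the 3 vehicle (grey) and 3 4-OHT libraries (red), with libraries at 0 not drawn. Pigr stands highest in both groups, Nox1 moves above Duox2 in 4-OHT organoids, and Lcn2 has 1 drawn 4-OHT library because the other 4-OHT libraries had 0 reads.

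Levels per kilobase were taken with the lowest-numbered protein-coding transcript of each gene in GENCODE, and the order in the middle depended on that choice. Pigr led with a normalized count per kilobase of 1920.2 ± 173 in vehicle and 1533 ± 43.9 in 4-OHT organoids, apart from the next gene. In vehicle the order went on with Duox2, Nox1, Duoxa2 at 85.4 ± 12.1, Saa1 at 81.9 ± 52.8, Ly6g6c at 44.7 ± 8.56, Saa3 at 40.8 ± 14.7, Nos2 at 23.6 ± 2.11 and Lcn2 at 9.12 ± 3.57. Neighbours from Duoxa2 down to Saa3 overlapped, while Nos2 and Lcn2 each stood apart. In 4-OHT organoids the order was Pigr, Nox1, Duox2, Saa1 at 126 ± 38.4, Duoxa2 at 95.8 ± 23.3, Ly6g6c at 78.5 ± 24.1, Nos2 at 61.9 ± 4.71, Saa3 at 23.7 ± 9.41 and Lcn2 at 0.76 ± 1.31. There, neighbours from Duox2 to Nos2 overlapped, and Nos2 stood above Saa3 in every library. With the longest coding transcript, an alternative chosen after seeing the data, Saa3 came to 10.3 ± 3.72 per kilobase in vehicle and 5.98 ± 2.37 in 4-OHT organoids, below Nos2 in both groups, and the mean of Ly6g6c came to 27.8 and 48.8, below Nos2 in 4-OHT organoids though overlapping it.

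The serum amyloid A genes lie in a cluster on chromosome 7 in the order Saa3, Saa4, Saa1 and Saa2. The promoters of Saa1 and Saa2 are shown because the genes are near copies, so that short reads can be hard to assign. They are chr7:46742981-46743230, minus strand, for Saa1 and chr7:46751583-46751832, plus strand, for Saa2, from RefSeq on GRCm38.p6, and capitals mark the 12 bases of each that have no identical partner in the alignment.
Saa1: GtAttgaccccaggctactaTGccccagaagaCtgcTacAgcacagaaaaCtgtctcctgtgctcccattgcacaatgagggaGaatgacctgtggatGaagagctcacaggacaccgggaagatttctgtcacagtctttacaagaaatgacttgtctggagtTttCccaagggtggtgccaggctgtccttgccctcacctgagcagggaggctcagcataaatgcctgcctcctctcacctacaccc
Saa2: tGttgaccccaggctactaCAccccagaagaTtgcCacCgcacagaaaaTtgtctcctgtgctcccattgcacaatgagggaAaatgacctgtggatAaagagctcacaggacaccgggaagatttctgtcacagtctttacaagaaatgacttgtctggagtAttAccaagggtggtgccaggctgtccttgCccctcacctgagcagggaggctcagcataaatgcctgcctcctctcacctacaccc
The 2 promoters were identical at 238 of 251 aligned positions (94.8%), and the longest coding transcripts at 572 of 655 (87.3%). Of the 50-base windows of a Saa1 transcript, 14.8% also occur in Saa2 or Saa3, and of the 100-base windows 0%. How shared reads were counted is not given in the sources used here, so the Saa1 values are uncertain to that extent.

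Saa1 had normalized counts of 13.1, 72.4 and 64.2 in vehicle replicates 1, 2 and 3 and of 62.0, 64.3 and 104 in 4-OHT replicates 1, 2 and 3. Vehicle replicate 1, with 14 reads, stood far below the other 5 libraries, which overlapped. The means were 49.9 ± 32.1 and 76.6 ± 23.4, a log2 fold change of 0.89 (SE 0.41, 95% interval 0.03 to 1.75, limma adjusted p = 0.088). Without vehicle replicate 1 it was 0.13 (adjusted p = 0.71), and without vehicle replicate 2 or 3 it was 1.32 and 1.23 and passed the test (adjusted p = 0.015 and 0.041). Without 4-OHT replicates 2 and 3 it was 0.63 (limma adjusted p = 0.47).

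Saa3 had normalized counts of 14.9, 31.2 and 21.8 in vehicle replicates 1, 2 and 3 and of 8.26, 18.7 and 12.5 in 4-OHT replicates 1, 2 and 3. The groups overlapped, since 4-OHT replicate 2 lay above vehicle replicate 1. The means were 22.6 ± 8.18 and 13.1 ± 5.22, a log2 fold change of -0.75 (SE 0.39, 95% interval -1.56 to 0.06, limma adjusted p = 0.13), and -1.29 without 4-OHT replicates 2 and 3 (adjusted p = 0.057). Saa1 and Saa3 thus had fitted values of opposite sign, of which neither passed the test. Per 100 reads of Saa3 there were 87.5, 232 and 294 reads of Saa1 in vehicle replicates 1, 2 and 3. In 4-OHT replicates 1, 2 and 3 there were 750, 344 and 827, each 4-OHT library above each vehicle library. These ratios rest on only 16, 44 and 18 reads of Saa3 in the vehicle and 8, 18 and 11 in the 4-OHT libraries. Their difference was not tested.

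Lcn2 encodes the siderophore-binding lipocalin 2. Its reads were 7, 9 and 10 in vehicle replicates 1, 2 and 3 and 0, 2 and 0 in 4-OHT replicates 1, 2 and 3. Every 4-OHT library was below every vehicle library, but the mean normalized count, 8.34 ± 3.26 in vehicle and 0.69 ± 1.20 in 4-OHT organoids, was under the minimum for the test. Per size factor and over the groups, the 4-OHT to vehicle ratio was 0.091, with an exact 95% interval of 0.010 to 0.36 that covers counting error only, and 0 reads in a library allow up to 3. With no minimum, limma gave an adjusted p of 0.0017. Slc22a17, a receptor for lipocalin 2, had between 1 and 15 reads in a library and was not tested.

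Beyond the members, acute-phase and iron-withholding genes had few reads. Of 17 listed, 11 had a row, 3 were tested, 2 rose and none fell, with a median log2 fold change of 1.25. Among all tested genes, 22.7% rose and 21.0% fell. Complement C3 rose from 11.3 ± 4.83 to 29.7 ± 11.5 (log2 fold change 1.33, limma adjusted p = 0.011) and lactoferrin (Ltf) from 8.40 ± 5.23 to 18.1 ± 1.52 (log2 fold change 1.25, limma adjusted p = 0.045). Without 4-OHT replicates 2 and 3 the log2 fold change was 0.60 for C3 and 1.36 for Ltf. Neither was called without vehicle replicate 3 (adjusted p = 0.063 and 0.23) or without 4-OHT replicate 2 (adjusted p = 0.068 and 0.079) or 3 (adjusted p = 0.058 and 0.094), and Ltf was not called without 4-OHT replicate 1 (adjusted p = 0.092). Of 16 alternatives, 9 lost the call of Ltf, among them edgeR (adjusted p = 0.063) and DESeq2 (adjusted p = 0.12), and 7 kept it. Saa4 was not analysed here.

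Ly6g6c belongs to the Ly6 family of small proteins with a three-finger fold, most of them anchored to the cell surface by a lipid, and lies beside Ly6g6d on chromosome 17. Its normalized counts were 32.7, 23.4 and 24.2 in vehicle replicates 1, 2 and 3 and 61.0, 32.1 and 47.8 in 4-OHT replicates 1, 2 and 3. The groups overlapped only in that 4-OHT replicate 2 lay just under vehicle replicate 1. The mean rose from 26.8 ± 5.12 to 47.0 ± 14.4, a log2 fold change of 0.76 (SE 0.27, 95% interval 0.18 to 1.33, limma adjusted p = 0.031). The call was lost without vehicle replicate 2 (0.67, adjusted p = 0.098), vehicle replicate 3 (0.70, adjusted p = 0.083), 4-OHT replicate 1 (0.55, adjusted p = 0.15) or 4-OHT replicate 3 (0.72, adjusted p = 0.081), and with no minimum mean (adjusted p = 0.076). Without 4-OHT replicates 2 and 3 it was 1.17 (limma adjusted p = 0.018).

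Of 19 other Ly6 and Lypd genes, 10 were tested, 8 rose, none fell and 2 did not pass, at a background of 22.7% higher and 21.0% lower. Their median log2 fold change was 0.46, and 4 passed without 4-OHT replicates 2 and 3. Psca, a surface antigen first described in prostate, rose from 17.1 ± 6.20 to 50.6 ± 7.85 (log2 fold change 1.56, limma adjusted p = 0.00027), and Ly6d rose from 553 ± 22.2 to 1104 ± 205 (0.98, adjusted p = 7.4e-08). The neighbour Ly6g6d rose by 0.45 (adjusted p = 0.044), a call that was lost without vehicle replicate 1, 2 or 3 (adjusted p = 0.069, 0.098 and 0.096) and without 4-OHT replicate 2 or 3 (adjusted p = 0.14 and 0.083). Of 17 alternatives, 11 lost the call, among them edgeR (adjusted p = 0.056) and DESeq2 (adjusted p = 0.098), and 6 kept it. Ly6g6e was at 0.46 (adjusted p = 0.072, 95% interval 0.04 to 0.88), and Ly6g6f had 3 reads over all vehicle libraries and 0 over all 4-OHT libraries.

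**Figure D3:**
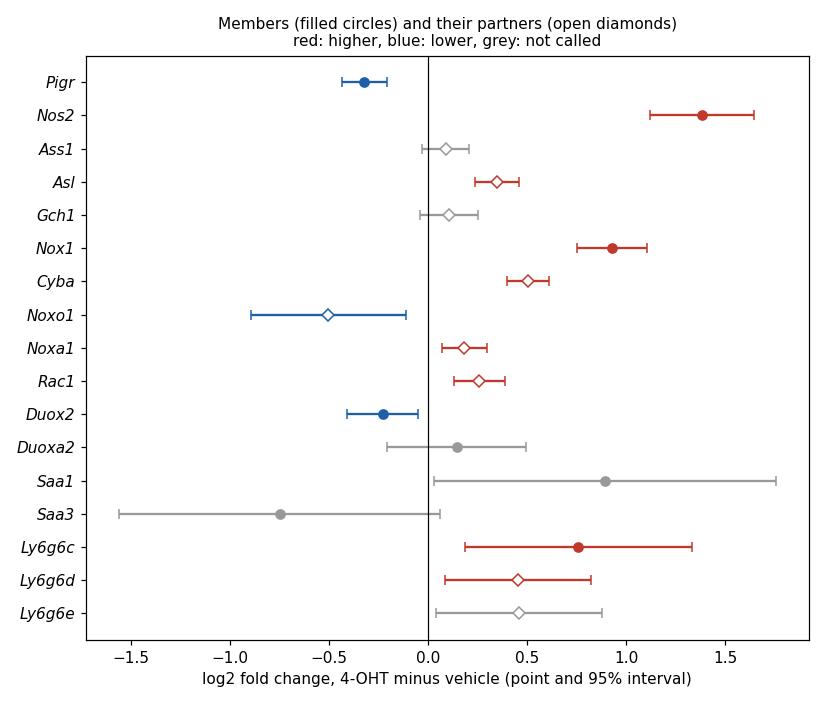
Log2 fold change of 4-OHT against vehicle (horizontal axis) with its 95% interval for the 8 tested members (filled circles) and their tested partners (open diamonds), 3 libraries a group, with called genes in red (higher) or blue (lower). Nos2 at 1.38 and Nox1 at 0.93 lie farthest right among the members, and the intervals of Duoxa2 and Saa3 cross 0.

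The groups of 3 of the 8 tested members, Pigr, Nos2 and Nox1, did not overlap, where 52.1% of all tested genes had groups that did not overlap. The same 3 kept their call and direction in every alternative run. Reads of Nos2 per 100 of Pigr were 1.44, 1.11 and 1.50 in vehicle replicates 1, 2 and 3. In 4-OHT replicates 1, 2 and 3 they were 4.56, 4.11 and 4.52. This ratio had to separate the groups, since Nos2 was higher and Pigr lower in every 4-OHT library.

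Receptors and regulators of pathways known to induce these effectors, inhibitors among them, moved in both directions. So did all tested genes, of which 22.7% rose and 21.0% fell. Of 23 listed receptors and adaptors of the inducing cytokines and microbial products, 22 were tested, 8 rose, 3 fell and 11 did not pass, with a median log2 fold change of 0.088, and 7 passed without 4-OHT replicates 2 and 3. Nod2, a sensor of muramyl dipeptide, rose from 96.3 ± 4.79 to 153 ± 15.1 (0.66, limma adjusted p = 0.00074), whereas the related Nod1 fell by 0.40 (adjusted p = 0.0066). Without 4-OHT replicates 2 and 3 neither passed (adjusted p = 0.063 and 0.15). Il10rb, a shared chain of the interleukin 22 receptor, rose by 0.41 (adjusted p = 0.00029). Lifr, the leukemia inhibitory factor receptor, fell from 210 ± 6.38 to 94.2 ± 24.1 (-1.18, adjusted p = 6.5e-06).

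Of 22 transcription factors and signalling regulators, all tested, 7 rose, 6 fell and 9 did not pass, with a median of -0.019. Among all tested genes, 22.7% rose and 21.0% fell. The NF-kB subunits Nfkb2 and Relb, partners in the non-canonical pathway, rose by 0.48 and 0.42 on the log2 scale (limma adjusted p = 7.5e-08 and 7.2e-06). Irf8, an interferon regulatory factor, fell from 1305 ± 58.5 to 775 ± 82.1 (-0.76, adjusted p = 6.4e-08). Socs3, a feedback inhibitor of STAT3 signalling, fell from 388 ± 25.0 to 230.0 ± 17.1 (-0.75, adjusted p = 3e-06).

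Genes that remove peroxide, the product of the oxidases, also split, beside 22.7% of all tested genes that rose and 21.0% that fell. Of 16 listed, 15 were tested, 6 rose, 4 fell and 5 did not pass, with a median of 0.11. Prdx5 rose from 3928 ± 143 to 6540.2 ± 767 (log2 fold change 0.73, limma adjusted p = 1.6e-08). Gpx1 had the largest fitted rise of the list, 0.76, at low counts of 42.1 ± 7.75 and 73.6 ± 22.6 with overlapping groups (adjusted p = 0.014), and was not called without vehicle replicate 2 (adjusted p = 0.056) or 4-OHT replicate 2 or 3 (adjusted p = 0.053 and 0.098). Without 4-OHT replicates 2 and 3 together, the log2 fold change of Gpx1 was 0.25 and that of Prdx5 0.55. Prdx4, the peroxiredoxin of the endoplasmic reticulum, fell by 0.38 (adjusted p = 0.0019), and Txnrd1, the cytosolic thioredoxin reductase, fell by 0.22 (adjusted p = 0.00028).

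Of 17 other secreted or epithelial antimicrobial genes, 11 were tested, 7 rose, none fell and 4 did not pass, with a median log2 fold change of 0.62, beside 22.7% of all tested genes that rose and 21.0% that fell. Wfdc18, of the whey acidic protein family, rose from 38.1 ± 1.66 to 88.9 ± 11.8 (1.20, limma adjusted p = 4.8e-05). Ang4, an antimicrobial ribonuclease, rose from 529 ± 71.1 to 985 ± 126 (0.90, adjusted p = 2.1e-07).

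**Figure D4:**
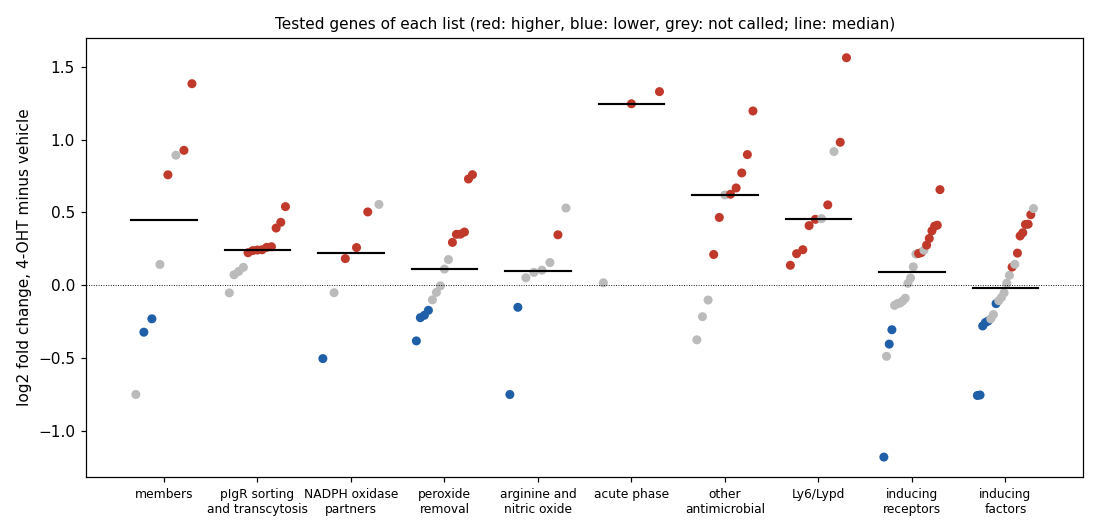
Log2 fold change of 4-OHT against vehicle (vertical axis) for the tested genes of the members and of 9 related lists (horizontal axis), where each point is 1 gene, red is called higher, blue is called lower and grey is not called, and the line is the median. Points of the transcytosis, other antimicrobial and Ly6/Lypd lists that were called all lie above 0, while the inducing receptors and factors hold called points on both sides.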

How the data were processed

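RNA from 3 vehicle and 3 4-OHT organoid libraries was sequenced, and the authors deposited 1 table of gene values. These deposited values are normalized counts, a signal obtained by dividing the reads of a gene by 1 size factor per library, with no scaling to length. STAR, DESeq2, GRCm39 and mm39 are named in the submitters' processing notes without roles or versions; the read counter and annotation are not given in the sources used here. In each library the values were multiples of the same step (100% whole at a tolerance of 0.1 reads), which gave the reads back. Libraries of a group differed by 3.49 to 6.44 times counting variance (chi-square per degree of freedom).

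Genes whose normalized counts averaged 10 or more were compared with limma-trend (limma 3.58.1, R 4.3.3) on log2(value + 1), without the replicate number as a block, because deviations of same-numbered libraries correlated between -0.020 and 0.030. Errors are SD, and fitted values carry SE. Lengths of the lowest-numbered coding transcripts, and windows of the longest shared between genes, came from GENCODE vM21 on GRCm38. The alternatives were pseudocounts of 0.1 and 10, no minimum or a minimum of 50, TMM, quantile normalization, the replicate number as a block, leaving out single libraries or 4-OHT replicates 2 and 3, and edgeR 4.0.16 and DESeq2 1.42.0 on recovered reads; edgeR called 5780 genes.

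Members and lists were chosen with earlier results of these data known. Named were all members, their fixed partners, and of each list the 2 called genes that rose most and the 2 that fell most; of the marker lists, genes with most reads. The markers Ptprc, Tyrobp, Csf1r, Car4 and Aqp8 were named after their values were seen.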

Additional observations from a re-analysis of the deposited data

How the results depend on the processing

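Directions of Pigr, Nos2, Nox1, Duox2, Saa1, Saa3, Lcn2 and Ly6g6c were kept in every alternative that gave a value, and Duoxa2 reversed to -0.29 without 4-OHT replicates 2 and 3; the cause was not tested. Leaving out 1 library at a time moved the log2 fold change of Pigr between -0.37 and -0.25, Nos2 between 1.32 and 1.45, Nox1 between 0.86 and 1.02, Duox2 between -0.30 and -0.12 (call lost 3 times of 6), Saa1 between 0.13 and 1.32 (call gained 2 times), Ly6g6c between 0.55 and 1.00 (call lost 4 times), Duoxa2 between 0.00 and 0.36 and Saa3 between -1.02 and -0.48. The number of called members ranged from 3, without 4-OHT replicate 1, to 5 in these fits. The replicate number as a block gave 5637 genes and 6 members, with Saa1 called at 0.89 (limma adjusted p = 0.007), and ended the call of Ly6g6d (adjusted p = 0.058). It changed no other call among the members, their partners and the named genes of the related lists. Genes of the marker lists were not read out in the alternatives. The pairing rests on the number alone. Saa1 was also called, at 0.59, by edgeR on reads with no minimum (adjusted p = 0.018, chosen after seeing the data), where 7 members were called. With no minimum, Ly6g6c was at 0.76 (limma adjusted p = 0.076). Genes called ranged from 3848 to 5780. Of 153 list counts, 141 stayed within 1.5 times the reported count. Lcn2, Saa3 and Ly6g6c rest on few reads.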
